A study of Mus musculus with 6 samples.

Results

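The genes of voltage-gated calcium channels, voltage-gated sodium channels and TRP channels were compared between islets of control and Sox17-GOF mice. The members are all genes whose symbol begins with Cacna, Cacnb or Cacng, with Scn and a digit, or with Trpc, Trpm or Trpv and a digit, together with Trpa1 and Nalcn. Of the 19937 genes represented on the arrays by a probe set with a single symbol, 58 fitted this rule. Trpc4ap and Trpc5os match by symbol alone, since the first encodes a protein associated with TRPC4 and the second an opposite-strand transcript of Trpc5, which leaves 56 channel genes. Another 7 symbols of these families in RefSeq were not analysed here.

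Whole islets of 16-week-old mice, male according to the methods, were hybridized to Affymetrix Mouse Gene ST arrays after 24 hours of doxycycline. The strain, labelled C57BL/6, derived from outbred stock by a minimum of 3 generations of backcrossing. By the sample labels, the 3 control samples had the genotype Ins2-rtTA. The 3 Sox17-GOF samples had tetO-Sox17 in addition, and the drug was given to both groups. The methods describe independent biological triplicates, and the comparison asks what a short pulse of Sox17 changes in islet gene expression. The insulin promoter restricts the doxycycline-dependent activator to β cells, while the arrays read RNA of every islet cell type. In such bulk RNA, fewer cells of one type and less RNA per cell cannot be told apart. Values are log2 expression after RMA, an array normalization that brings the arrays to a like distribution, and a difference of 1 is a 2-fold change. A probe set was called changed at a Benjamini-Hochberg adjusted p under 0.05 from limma, a linear model that shares variance between probe sets.

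Glucose metabolism closes the KATP channels of the β cell, and the membrane depolarises. Voltage-gated sodium and calcium channels then fire action potentials, and the calcium that enters through L-type channels triggers exocytosis of insulin granules. A calcium channel consists of a pore-forming subunit with an intracellular β subunit and an extracellular α2δ subunit, while a sodium channel has a pore-forming subunit with small membrane-spanning β subunits. TRP channels and the sodium leak channel NALCN carry background and receptor-operated cation currents that move the membrane towards its threshold.

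Sox17 was higher on the Sox17-GOF arrays by a log2 fold change of 0.67 (SE, standard error, 0.09; adjusted p = 0.00876 from limma), with no overlap between the groups. The exact two-sided permutation test gave p = 0.10, the smallest value that 3 arrays against 3 allow. Arrays within a group correlated at 0.984 to 0.991. Of 8 β cell markers, 4 were lower on the Sox17-GOF arrays, 0 were higher and 4 did not pass, and their summed linear signal, in units of 1000, was 33.7 to 34.8 on the control arrays and 27.8 to 28.5 on the Sox17-GOF arrays. The 4 lower markers were Slc2a2, Ucn3, Slc30a8 and Pdx1. Ins2 and Iapp were among the 4 that did not pass (adjusted p = 0.96 and 0.599), with Mafa and Nkx6-1 at log2 fold changes of -0.01 and -0.17. No listed marker of α cells (4 measured), δ and PP cells (6), Schwann and glial cells (4), stellate cells and fibroblasts (6), duct (5) or acinar cells (4) passed in either direction. Th among 7 neuronal, Kdr among 6 endothelial and Cd79a among 6 leukocyte markers were lower. The other markers of these lists did not pass, and the signs were mixed. Log2 fold changes were above 0 for 3 neuronal, 4 endothelial and 2 leukocyte markers, and below 0 for 4, 2 and 4. The endothelial Pecam1 and Cdh5 were at 0.37 and 0.27 (adjusted p = 0.11 and 0.215). The summed signal of the neuronal list was 2.55 to 3.19 on the control arrays and 2.25 to 2.77 on the Sox17-GOF arrays, and that of the endothelial list 1.33 to 1.49 and 1.31 to 1.51. The part of these shifts in the channel results was not tested.

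Of the 58 genes, 2 were lower on the Sox17-GOF arrays, 0 were higher and 56 did not pass. This was 3.45% of the members, beside 5.21% of all genes called in either direction (2.77% higher and 2.44% lower). At an unadjusted p under 0.05, 5 members were lower and 3 were higher, 13.8% of them beside 19.7% of all genes. The median log2 fold change of the members was 0.04 and that of all genes -0.01. By their brightest probe sets the channel genes were called no more often than other genes. Over their 74 single-symbol probe sets 8.11% were called, beside 4.93% of all 22961 probe sets with a symbol. Scn2a alone has 14 of the 74, and probe sets of a gene share its RNA, so this share does not count separate genes. The 2 decreases were those of Cacna1d, a pore of L-type calcium channels, and Scn9a, a pore of voltage-gated sodium channels. In both, no Sox17-GOF array reached the lowest control, as was the case without an adjusted call for Cacna1c, Trpm2, Trpm5, Trpc4 and Cacng4. The groups did not overlap for 13 members in all, 7 lower and 6 higher, or 22.4% of the members beside 25.5% of all genes (14.2% lower and 11.3% higher).

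**Figure D1:**
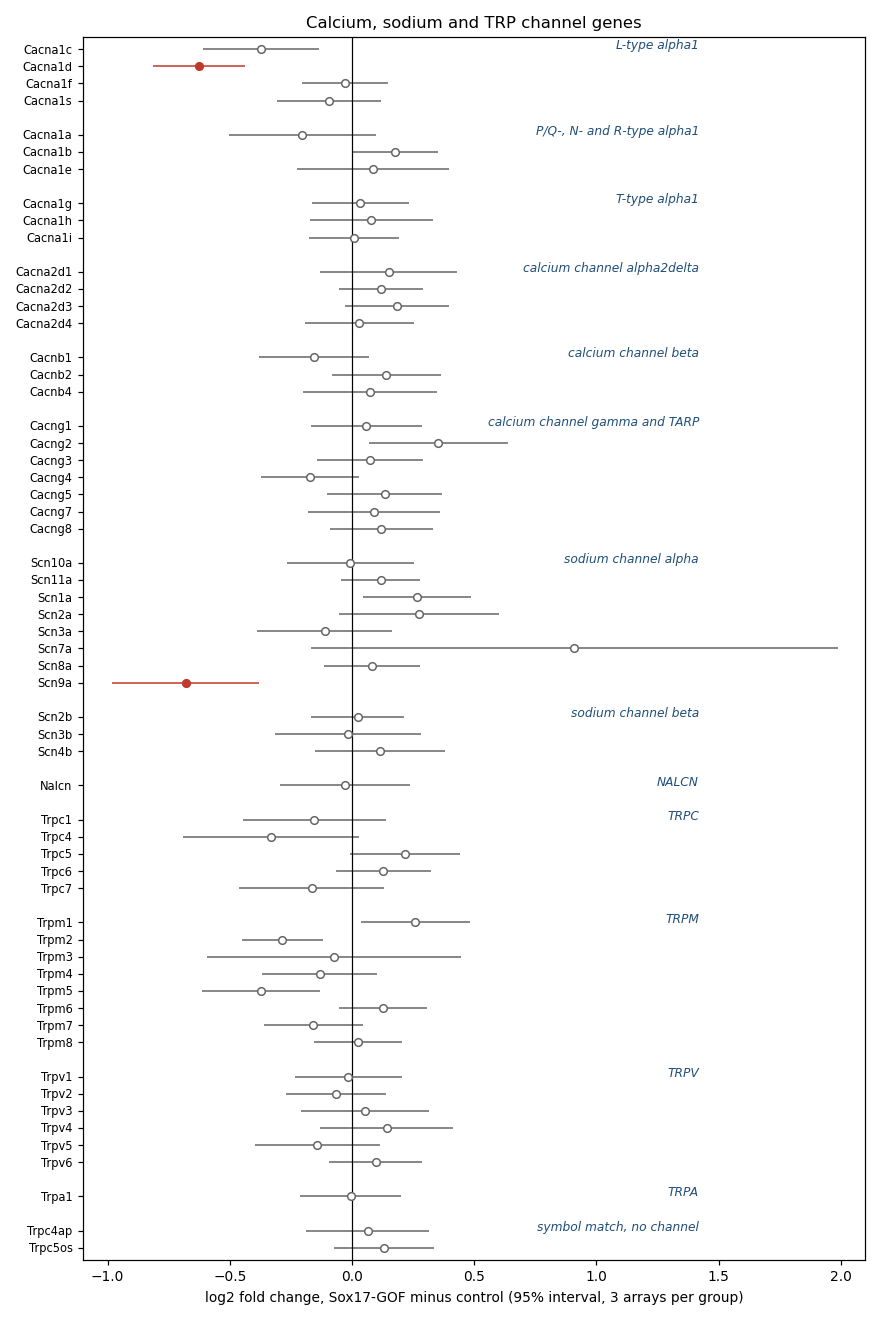
Log2 fold changes (Sox17-GOF minus control) of the 58 genes, grouped by role, with 95% intervals from limma on 3 arrays per group. Filled red points passed an adjusted p of 0.05, which only Cacna1d and Scn9a did, both to the left of 0, while the interval of Scn7a is the widest.

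The promoters of Cacna1d, Scn9a and Cacng2, each with a changed probe set, are shown so that the letters before each start can be read beside the values. They come from RefSeq on build GRCm38.p6 and span 250 bases before to 50 after a start site, 5′ to 3′ on the gene's strand. Capitals mark ACAAT or its reverse complement ATTGT, the core letters that SOX proteins bind, searched on both strands. The first is the upstream start of Cacna1d at chr14:30491107-30491406, minus strand, the second Scn9a at chr2:66634913-66635212, minus strand, and the third Cacng2 at chr15:78119231-78119530, minus strand.
Cacna1d: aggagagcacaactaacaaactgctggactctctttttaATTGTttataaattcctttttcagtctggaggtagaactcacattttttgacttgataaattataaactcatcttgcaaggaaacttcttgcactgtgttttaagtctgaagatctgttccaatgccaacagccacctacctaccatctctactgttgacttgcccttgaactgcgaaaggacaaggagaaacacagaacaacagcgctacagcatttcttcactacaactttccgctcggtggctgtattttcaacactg
Scn9a: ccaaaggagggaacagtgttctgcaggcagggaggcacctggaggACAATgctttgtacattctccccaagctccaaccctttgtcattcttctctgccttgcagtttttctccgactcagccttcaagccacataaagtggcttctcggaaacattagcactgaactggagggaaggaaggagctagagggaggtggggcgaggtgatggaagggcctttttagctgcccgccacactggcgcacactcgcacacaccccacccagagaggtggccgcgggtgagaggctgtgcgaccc
Cacng2: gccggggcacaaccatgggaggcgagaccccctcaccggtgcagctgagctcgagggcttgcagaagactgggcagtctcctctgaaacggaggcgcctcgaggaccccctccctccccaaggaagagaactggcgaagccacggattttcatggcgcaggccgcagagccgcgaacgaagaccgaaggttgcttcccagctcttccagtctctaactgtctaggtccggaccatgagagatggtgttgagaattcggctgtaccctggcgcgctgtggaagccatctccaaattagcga
Cacna1d and Scn9a each held the letters in 1 place, while the window of Cacng2 held none, and neither did those of the second Cacna1d start or of the 2 starts of Scn2a. Of 62 such windows belonging to 48 of the members, 12 held them (19.4%), as did 31% of all 32851 windows in the table. A match in so short a motif is a description of the sequence and not a binding site.

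The pore-forming subunits of L-type channels are the main route of calcium into β cells. Cacna1d had log2 levels of 9.28, 9.33 and 9.12 on the control arrays and 8.64, 8.60 and 8.62 on the Sox17-GOF arrays. The Sox17-GOF arrays had an SD of 0.02 and lay well below the lowest control array. The decrease was 1.54-fold (log2 fold change -0.63, SE 0.08, 95% interval -0.82 to -0.44, adjusted p = 0.00696). It passed in all 6 sets of 5 arrays (adjusted p 0.0170 to 0.0405). Cacna1c, the other L-type pore of islets, had levels of 7.98, 7.73 and 7.67 on the control arrays and 7.47, 7.47 and 7.33 on the Sox17-GOF arrays. All 3 Sox17-GOF values lay below the controls, but the difference did not pass after adjustment (log2 fold change -0.37, SE 0.10, 95% interval -0.61 to -0.14, adjusted p = 0.0898). The level of Cacna1d minus that of Cacna1c, taken within each array, averaged 1.45 ± 0.15 (SD, n = 3) on the control arrays and 1.20 ± 0.08 (SD, n = 3) with Sox17-GOF. This shift of -0.25 in the difference had an exact permutation p = 0.10, the smallest that the design allows, and the pair was chosen after its values were seen. Cacna1f and Cacna1s, the L-type pores of retina and skeletal muscle, had log2 fold changes of -0.03 and -0.09 with overlapping groups (adjusted p = 0.89 and 0.655).

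The other pores did not pass the test. Cacna1a, of the P/Q type, had levels of 7.87, 7.88 and 7.71 on the control arrays and 7.40, 7.89 and 7.57 on the Sox17-GOF arrays. Sox17-GOF replicate 2 lay above all controls and the other two below them, so the groups overlapped (log2 fold change -0.20, adjusted p = 0.469). Cacna1b, of the N type, was 6.43 to 6.52 on the control arrays and 6.60 to 6.74 on the Sox17-GOF arrays, a difference of 0.18 on the log2 scale without overlap that did not pass (adjusted p = 0.263). Cacna1e, of the R type, had a log2 fold change of 0.09 (95% interval -0.22 to 0.40). The T-type pores Cacna1g, Cacna1h and Cacna1i, which open near resting potential, had log2 fold changes of 0.01 to 0.08, with adjusted p of 0.766 to 0.971.

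The auxiliary subunits of calcium channels did not pass by their brightest probe sets. Among the α2δ subunits, which bring the pore to the surface, Cacna2d1 had levels of 10.90, 10.97 and 10.78 on the control arrays and 11.03, 11.26 and 10.82 on the Sox17-GOF arrays. These overlapped, and the 95% interval of the difference ran from -0.13 to 0.43 (log2 fold change 0.15, adjusted p = 0.575). Its second probe set gave 0.08 (adjusted p = 0.686). Cacna2d2, Cacna2d3 and Cacna2d4 had log2 fold changes of 0.12, 0.18 and 0.03. Of the intracellular β subunits, which set gating and surface density, Cacnb2 had levels of 7.16, 7.03 and 6.90 on the control arrays and 7.24, 7.06 and 7.21 on the Sox17-GOF arrays. The groups overlapped (log2 fold change 0.14, 95% interval -0.08 to 0.36, adjusted p = 0.495). According to the platform annotation, the only Cacnb2 probe set lists no RefSeq messenger RNA. Cacnb1 and Cacnb4 had log2 fold changes of -0.15 and 0.07.

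**Figure D2:**
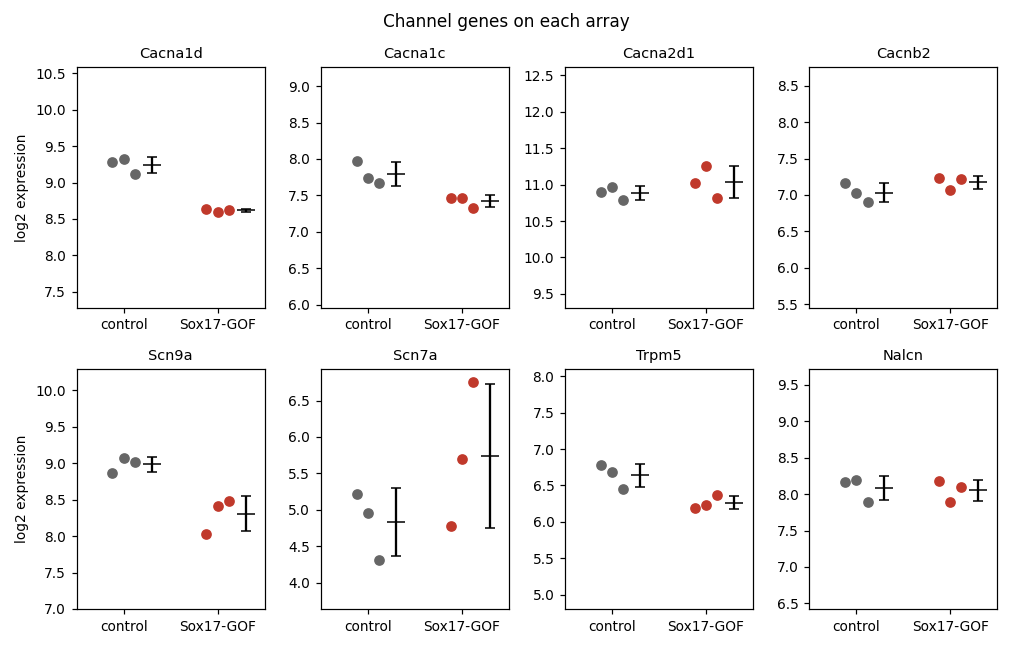
Log2 expression of 8 channel genes, with a point for each array (grey, 3 controls; red, 3 Sox17-GOF samples), a line at the group's mean and a bar of its SD; every panel spans the same log2 range. Cacna1d, Cacna1c, Scn9a and Trpm5 are lower on all 3 Sox17-GOF arrays, the groups overlap for Cacna2d1, Cacnb2 and Nalcn, and the Sox17-GOF arrays of Scn7a lie far apart.

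The γ subunits include Cacng1 of the muscle calcium channel and the TARPs, which carry AMPA-type glutamate receptors to synapses. Cacng4, a TARP, had levels of 6.93 to 7.17 on the control arrays and 6.83, 6.84 and 6.91 on the Sox17-GOF arrays. The groups were separated by 0.01 only, and the difference did not pass (log2 fold change -0.17, adjusted p = 0.343). Cacng2, which encodes stargazin, the first TARP described, had a pair of probe sets that gave different values. The brighter one, probe set 10430280, had levels of 6.47, 6.69 and 6.73 on the control arrays and 6.84, 7.21 and 6.90 on the Sox17-GOF arrays. It was higher on every Sox17-GOF array without passing (log2 fold change 0.35, SE 0.12, adjusted p = 0.168). The dimmer one, probe set 10430282, had levels of 5.65, 5.49 and 5.85 on the control arrays and 7.08, 6.70 and 7.28 on the Sox17-GOF arrays. All 3 Sox17-GOF values lay at least 0.84 above the highest control, and this probe set rose 2.56-fold (log2 fold change 1.35, SE 0.16, adjusted p = 0.00483). Its increase passed in all 6 sets of 5 arrays (adjusted p 0.00473 to 0.0304) but not by the methods' t-test after adjustment (adjusted p = 0.107). According to the platform annotation, the changed probe set lists the RefSeq messenger RNA of Cacng2 and the brighter one lists cDNA clones without it. Within arrays, the dimmer minus the brighter probe set averaged -0.96 ± 0.20 (SD, n = 3) on the control arrays and 0.04 ± 0.48 (SD, n = 3) with Sox17-GOF. The shift of 1.00 had an exact permutation p = 0.10, the smallest possible, and this pair too was chosen after its values were seen. Cacng1, Cacng3, Cacng5, Cacng7 and Cacng8 had log2 fold changes of 0.06 to 0.13 and did not pass.

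Among the pores of voltage-gated sodium channels, which carry the rapid upstroke of the action potential, Scn9a was lower. This gene encodes the channel of pain-sensing neurons that islet cells also express. Its levels were 8.87, 9.07 and 9.02 on the control arrays and 8.03, 8.41 and 8.48 on the Sox17-GOF arrays. Sox17-GOF replicate 1 was the lowest, and all 3 arrays lay at least 0.39 below the controls. The decrease was 1.60-fold (log2 fold change -0.68, SE 0.13, 95% interval -0.98 to -0.38, adjusted p = 0.0278). A second probe set of Scn9a, 10483326, had levels of 8.51, 8.33 and 8.55 on the control arrays and 8.05, 7.88 and 8.06 on the Sox17-GOF arrays. It fell as well (log2 fold change -0.47, SE 0.09, adjusted p = 0.0331). The call of the brighter probe set ended without any 1 of the control arrays or Sox17-GOF replicate 2 (adjusted p 0.0595 to 0.115), and that of the second without any 1 array but Sox17-GOF replicate 3 (0.0598 to 0.120).

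Scn2a, a pore of axons of the central nervous system, was measured by 14 probe sets on the same messenger RNA. The brightest had levels of 6.98, 7.20 and 7.16 on the control arrays and 7.08, 7.57 and 7.51 on the Sox17-GOF arrays, which overlapped (log2 fold change 0.27, adjusted p = 0.355). Of the 14, 2 were higher, none was lower and 12 did not pass, with a median log2 fold change of 0.39. All 14 log2 fold changes were above 0, but probe sets of a single transcript share their RNA and are no replicates. Probe sets 10472368, 10472370, 10472376 and 10472396 also had both group means below 4.63, the 20th percentile of all values and close to the background. Their log2 fold changes were 0.005 to 0.41. Probe set 10472398 had levels of 5.33, 5.18 and 5.94 on the control arrays and 6.76, 6.25 and 6.87 on the Sox17-GOF arrays. It rose 2.21-fold (log2 fold change 1.14, SE 0.23, adjusted p = 0.0333) without overlap. Probe set 10472402, at 5.49 to 5.64 on the control arrays and 5.95 to 6.25 on the Sox17-GOF arrays, rose by 0.53 on the log2 scale (SE 0.10, adjusted p = 0.0253). The 1.39 of probe set 10472400 was larger but did not pass (SE 0.33, adjusted p = 0.0593), with 6.18, 5.55 and 6.02 on the control arrays and 6.75, 7.07 and 8.08 on the Sox17-GOF arrays. Sox17-GOF replicate 3 was far above the other two in this probe set. Relative to the brightest probe set within the same array, its shift was 1.11 (exact permutation p = 0.10, the smallest possible; chosen after its values were seen). Each of the 2 calls was lost in 4 of the 6 sets of 5 arrays, with adjusted p of up to 0.121.

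**Figure D3:**
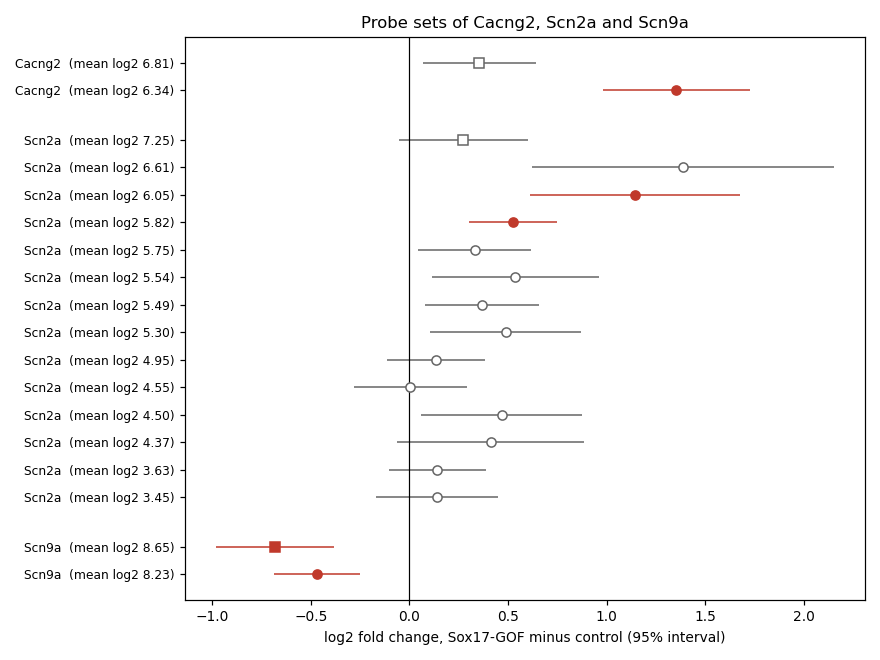
Log2 fold changes (Sox17-GOF minus control) with 95% intervals for every single-symbol probe set of Cacng2, Scn2a and Scn9a, ordered within a gene by mean log2 level; squares are the brightest probe set, and filled red symbols passed an adjusted p of 0.05. All probe sets of Scn2a and Cacng2 lie to the right of 0 and both of Scn9a to the left.

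Counted over the 74 single-symbol probe sets of the members, 3 were higher, 3 were lower and 68 did not pass. This was 8.11% called, beside 4.93% of all probe sets with a symbol, and it counts some genes more than once. The 6 calls belong to Cacna1d, Scn9a (both probe sets), Cacng2 and Scn2a (2 probe sets). Another 4 probe sets name several symbols, may read any of them, and did not pass. The one naming Scn2a, Scn9a and Scn3a together had a log2 fold change of -0.59 (adjusted p = 0.123). That of Scn9a and Scn3a was at -0.25 with overlapping groups (adjusted p = 0.649), and that of Scn3a and Scn1a at -0.01 (adjusted p = 0.976). The one naming Xntrpc, Xndc1 and Trpc2 was at -0.06 (adjusted p = 0.75).

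In the annotation, Scn3a, Scn2a, Scn1a, Scn9a and Scn7a lie in this order on chromosome 2, with 3 other protein-coding genes between Scn2a and Scn1a. Along this cluster the values went both ways. Scn3a had levels of 7.71, 8.04 and 7.61 on the control arrays and 7.62, 7.74 and 7.68 on the Sox17-GOF arrays, which overlapped (log2 fold change -0.11, adjusted p = 0.687). Scn1a had a log2 fold change of 0.27 (adjusted p = 0.178), with both group means below 4.63, the 20th percentile of all values, where signals lie close to the background. Scn7a, a sodium-sensing relative found in glia and stromal cells, had levels of 5.22, 4.96 and 4.31 on the control arrays and 4.78, 5.69 and 6.75 on the Sox17-GOF arrays. It had the highest fold of the 58 genes (log2 fold change 0.91, SE 0.46, 95% interval -0.17 to 1.99), but its arrays spread too widely to pass (adjusted p = 0.35). Its log2 fold change was 0.41 without Sox17-GOF replicate 3 and 1.39 without Sox17-GOF replicate 1. The summed linear signal of 6 stellate and fibroblast markers, in units of 1000, was 0.793, 1.03 and 0.559 on the control arrays and 0.689, 1.09 and 1.29 on the Sox17-GOF arrays. For Scn7a and for this sum, control replicate 3 was the lowest array and Sox17-GOF replicate 3 the highest. Among the markers in the sum, Dcn ran from 6.31 on the first of these arrays to 9.46 on the second. Sox17-GOF replicate 3 was also the highest array for the sums of the acinar, duct, δ and PP, and Schwann and glial lists. Control replicate 3 was the lowest for none of those lists. The part of any of these cells was not tested. Scn8a, Scn10a and Scn11a had log2 fold changes of 0.08, -0.01 and 0.12 and did not pass.

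The sodium channel β subunits, which tune gating and adhesion, showed small values. Scn3b had levels of 7.13, 7.04 and 6.74 on the control arrays and 7.05, 6.76 and 7.05 on the Sox17-GOF arrays. The groups overlapped (log2 fold change -0.02, 95% interval -0.31 to 0.28, adjusted p = 0.97). Scn2b and Scn4b had log2 fold changes of 0.02 and 0.11. Nalcn, the sodium leak channel, had levels of 8.17, 8.19 and 7.89 on the control arrays and 8.18, 7.90 and 8.09 on the Sox17-GOF arrays. These also overlapped (log2 fold change -0.03, 95% interval -0.29 to 0.24, adjusted p = 0.929).

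No member of the TRPC, TRPM, TRPV or TRPA families passed after adjustment. In the TRPM family, Trpm5, a calcium-activated cation channel of taste cells and β cells, had levels of 6.78, 6.68 and 6.46 on the control arrays and 6.19, 6.23 and 6.37 on the Sox17-GOF arrays. The groups were separated by 0.09 (log2 fold change -0.37, SE 0.10, 95% interval -0.61 to -0.13, adjusted p = 0.0945). Trpm5 also marks tuft cells, and of the 5 other tuft cell markers none passed (summed linear signal with Trpm5, in units of 1000, 0.388 to 0.442 and 0.355 to 0.419), with Dclk1 and Avil at log2 fold changes of 0.18 and 0.08 and Il25, Gnat3 and Pou2f3 at -0.20, -0.09 and -0.06. Trpm2, a channel opened by ADP-ribose and oxidative stress, had levels of 5.80, 5.71 and 5.75 on the control arrays and 5.47, 5.50 and 5.43 on the Sox17-GOF arrays. Its replicates lay close together, and its log2 fold change of -0.28 (SE 0.07, 95% interval -0.45 to -0.12) had an adjusted p = 0.0681. The direction of Trpm2, Trpm5 and Cacna1c was the same under every alternative tried, and none of them passed an adjusted p of 0.05 in any.

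Trpm7, a channel with a kinase domain that carries magnesium, had levels of 8.02, 7.86 and 8.10 on the control arrays and 7.82, 7.89 and 7.80 on the Sox17-GOF arrays. These overlapped (log2 fold change -0.16, adjusted p = 0.392). Trpm4, the close relative of Trpm5, had a log2 fold change of -0.13 (95% interval -0.37 to 0.10, adjusted p = 0.55). Trpm1, a channel of retinal bipolar cells and melanocytes, was 4.69 to 4.83 on the control arrays and 4.84 to 5.12 on the Sox17-GOF arrays, near the background, and did not pass (log2 fold change 0.26, adjusted p = 0.194). Trpm3, Trpm6 and Trpm8 had log2 fold changes of -0.07, 0.13 and 0.02, and the Sox17-GOF arrays of Trpm3 spread from 6.69 to 7.67.

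Among the receptor-operated TRPC channels, Trpc1 had levels of 8.67, 8.82 and 9.11 on the control arrays and 8.72, 8.84 and 8.58 on the Sox17-GOF arrays. The groups overlapped (log2 fold change -0.15, adjusted p = 0.583). Trpc4 was 7.39, 7.81 and 7.44 on the control arrays and 7.34, 7.36 and 6.94 on the Sox17-GOF arrays, separated by 0.03 and not passing (log2 fold change -0.33, adjusted p = 0.305). Trpc5, Trpc6 and Trpc7 had log2 fold changes of 0.22, 0.13 and -0.16. Of the TRPV channels, which respond to heat, osmotic swelling or calcium demand, Trpv4 had levels of 5.78, 5.83 and 6.05 on the control arrays and 5.85, 6.21 and 6.01 on the Sox17-GOF arrays. They overlapped (log2 fold change 0.14, adjusted p = 0.586), and the other TRPV genes lay between -0.14 and 0.10. Trpa1, the irritant receptor, was 4.78, 4.73 and 4.63 on the control arrays and 4.80, 4.75 and 4.57 on the Sox17-GOF arrays. These values are near the background and overlap (log2 fold change of -0.00468, adjusted p = 0.987). Trpc4ap and Trpc5os, which name no channel pore, had log2 fold changes of 0.06 and 0.13.

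Genes that act with these channels were read from lists of 41 partners and regulators and 15 genes of glucose-triggered depolarisation, of which 35 and 12 were measured. Both lists were chosen with earlier results of these data known, so their shares beside all genes are no independent evidence. Of the 35 partners, 5 fell and 30 did not pass, with 0 higher, or 14.3% called beside 5.21% of all genes, with a median log2 fold change of -0.01. At an unadjusted p under 0.05, 7 were lower and 2 higher (25.7% beside 19.7% of all genes). The 2 higher were Fgf13 and Fam155a, at log2 fold changes of 0.45 and 0.32 (adjusted p = 0.0614 and 0.253). Rimbp2, which links calcium channels to the release site, fell by 0.90 on the log2 scale (adjusted p = 0.00154). Gem, a small GTPase that binds the calcium channel β subunit and restrains current, had levels of 6.44, 6.50 and 6.86 on the control arrays and 5.78, 6.11 and 5.96 on the Sox17-GOF arrays. Every Sox17-GOF array was below the controls (log2 fold change -0.65, SE 0.14, adjusted p = 0.0396). Camk2b, a calmodulin-dependent kinase that modulates L-type channels, was 8.47 to 8.54 on the control arrays and 7.96 to 8.04 on the Sox17-GOF arrays (log2 fold change -0.50, SE 0.07, adjusted p = 0.00995). Mcoln3, an endolysosomal TRP channel whose symbol lies outside the rule of the members, was lower. Its levels were 6.12 to 6.16 on the control arrays and 5.39 to 5.66 on the Sox17-GOF arrays (log2 fold change -0.60, SE 0.09, adjusted p = 0.0115). Orai3, a store-operated calcium channel, fell (log2 fold change -0.36, SE 0.07, adjusted p = 0.0354). The store sensors Stim1 and Stim2 had log2 fold changes of -0.41 and -0.39 that did not pass (adjusted p = 0.194 and 0.2). The call of Gem ended when any 1 array was left out (adjusted p 0.0595 to 0.104), that of Orai3 without any 1 array but Sox17-GOF replicate 3 (up to 0.131), and that of Mcoln3 without control replicate 2 or 3 (0.0574 and 0.0503).

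Of the 12 measured genes of glucose-triggered depolarisation, 4 fell and 8 did not pass, with 0 higher, or 33.3% called beside 5.21% of all genes, with a median log2 fold change of -0.31. The genes that fell were Slc2a2, the glucose transporter (log2 fold change -1.01), Abcc8, the regulatory subunit of the KATP channel (-0.61), Kcnk16, a two-pore potassium channel of β cells (-0.51), and Atp2a2, a calcium pump of the ER (-0.50). At an unadjusted p under 0.05, 7 were lower and 0 higher (58.3% beside 19.7% of all genes), the other 3 being Itpr3, Atp2a3 and Kcnma1 (adjusted p = 0.0556, 0.073 and 0.144). Kcnj11, the pore subunit of the KATP channel, had a log2 fold change of -0.08 with overlapping groups (adjusted p = 0.645). By sign, 9 of the 12 were below 0, and 3 above it (Kcnn3, Kcnk3 and Ryr2, at 0.23, 0.14 and 0.06). Kcnk16 had levels of 9.86, 9.91 and 10.16 on the control arrays and 9.53, 9.57 and 9.31 on the Sox17-GOF arrays. All Sox17-GOF arrays lay below the controls (SE 0.11, adjusted p = 0.0458), and the call ended when any 1 array was left out (adjusted p 0.0789 to 0.12). That of Atp2a2 ended without Sox17-GOF replicate 2 or either of control replicates 1 and 2 (0.0616 to 0.0837), while Slc2a2 and Abcc8 passed in all 6 sets of 5 arrays. Slc2a2 also stands in the β cell list. The list was chosen with earlier results of these data known, and so its count is no independent evidence of a direction.

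**Figure D4:**
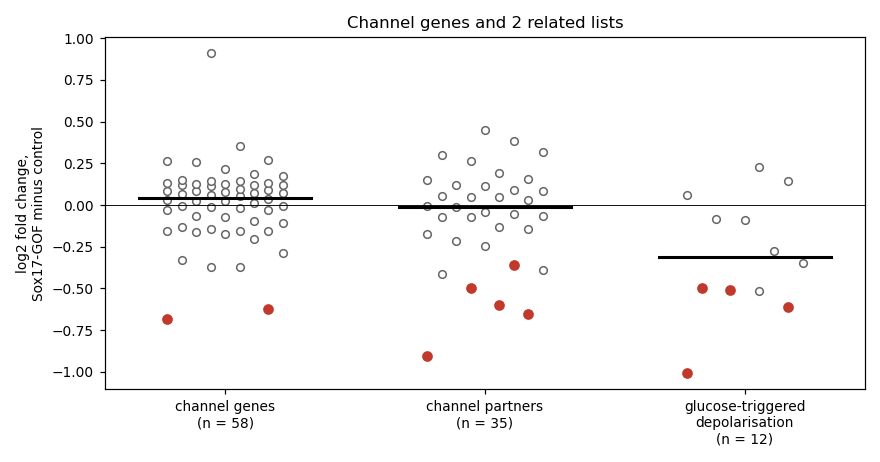
Log2 fold changes (Sox17-GOF minus control) of the 58 channel genes, 35 partners and regulators, and 12 genes of glucose-triggered depolarisation. Circles stand for genes, red ones passed an adjusted p of 0.05, and bars are medians (0.04, -0.01 and -0.31); all red circles lie below 0.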

How the data were processed

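Islet RNA of 3 control and 3 Sox17-GOF samples was measured, one array per sample. For the deposited log2 values the authors had used RMA (background correction, quantile normalization, median polish). The methods name GeneSpring and the submitters' processing notes Affymetrix Expression Console. Platform annotation gave a symbol to 22961 of 34760 probe sets, and the 58 members all had a RefSeq symbol.

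Groups were taken from the sample labels and fitted by lmFit and eBayes without trend (limma 3.58.1, R 4.3.3), with Benjamini-Hochberg adjustment over the 22961 probe sets. A gene is represented by its brightest single-symbol probe set. Called genes, Cacna1d, Cacna1c, Trpm5, Nalcn and the brightest member of each group are given on every array, and other members by fold; genes outside this rule shown by array (Cacna1a, Cacna1b, Cacng2, Scn2a, Scn3a, Scn7a, Trpc4, Trpm1, Trpm2) were named after their values were seen. Members and lists were chosen with earlier results of these data known. Single differences were also compared by exact two-sided permutation. As alternatives, single arrays were left out, probe sets of a gene were averaged, unnamed probe sets were kept or dim ones removed, array weights, a trend on intensity or a replicate block was added, arrays were centred on the median or quantile normalized again, and the methods' t-test was used. The number of arrays limits the precision.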

Additional observations from a re-analysis of the deposited data

How the results depend on the processing

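The decreases of Cacna1d and Scn9a were the only calls among the 58 genes, with none higher, with array weights, a trend on intensity, centring on the median, quantile normalization, removal of dim probe sets and the replicate block. With all probe sets tested, 1 member, Cacna1d, was lower (Scn9a had an adjusted p = 0.0733), and 0 were lower by the methods' t-test after adjustment (Cacna1d 0.0771, Scn9a 0.174), which called 71 of all probe sets. Read without adjustment at 1.3-fold, that t-test counted 2 lower. After averaging the probe sets of each gene, 2 members were higher, Cacng2 (0.85, adjusted p = 0.00233) and Scn2a (0.45, adjusted p = 0.0229). Leaving out 1 array gave 0 higher and 1 to 2 lower members. The 9 changed genes of the 2 lists became 5 with all probe sets, 2 by the adjusted t-test and 4 to 8 without 1 array (4 without control replicate 2, and 5 without Sox17-GOF replicate 2 or either of the other controls). Sox17 kept its log2 fold change of 0.67 but not its call in the adjusted t-test (adjusted p = 0.0906), and was between 0.59 and 0.71 without 1 array. Members far from any call changed sign. Trpa1 was 0.0059 with array weights and 0.014 with quantile normalization, and between -0.049 and 0.062 without 1 array (0.03 and 0.0047 where it was the first or second control, 0.062 where it was the third Sox17-GOF array). Nalcn was 0.018 with quantile normalization and between -0.12 and 0.051 without 1 array (above 0 where this was the first or second control, at 0.02 and 0.02, or the second Sox17-GOF array). Scn3b ranged from -0.13 to 0.080 (above 0, at 0.06 and 0.02, without the same controls, and at its highest without the second Sox17-GOF array), and Scn3a from -0.20 to 0.016 (above 0 without the second control). The same-numbered arrays did not deviate together (correlations of 0.05, -0.02 and -0.04), and with the replicate block 2 members were lower, 0 were higher, 6 list genes were changed and Sox17 was at 0.67. The cause of these changes was not tested. Signals near 4.63 lie close to background, and 3 members (Cacng3, Scn1a, Trpc5os) had both means below it.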
